A study of Mus musculus with 2 samples.

Results

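The genes examined here encode the bone morphogenetic protein (BMP), growth and differentiation factor (GDF), TGF-beta and activin pathway, from the secreted ligands to the Smad proteins that carry the signal to the nucleus. They were chosen by name, as 52 listed genes, with earlier results of these data known. A gene was taken up where the array held a probe set annotated with its symbol and no other. This left 50 of the 52 listed genes, of 18193 genes on the array, with 110 probe sets among them. Bmp3 and Gdf6 had no such probe set. Both samples came from embryos of Col2a1-Venus-Tg mice with a C57Bl/6 genetic background. In these mice the promoter of Col2a1, the gene of the main cartilage collagen, marks chondrocytes with Venus, a variant of green fluorescent protein. Flow sorting gave Venus-positive cells and Venus-negative cells, and each fraction was measured on 1 Affymetrix mouse array from its total RNA. Both fractions thus carry the transgene and differ in whether its product was seen. The sources used here do not give the age or number of the embryos or the gates of the sort. With 1 sample per fraction there was no replicate error and no test between fractions, and every difference below describes these 2 arrays only.

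Ligands of this superfamily are secreted dimers that bring together type I and type II serine/threonine kinase receptors. Most BMPs and several GDFs lead mainly to phosphorylation of Smad1, Smad5 and Smad9. TGF-betas, activins and some GDFs, GDF11 among them, act mainly through Smad2 and Smad3, and Smad4 is the shared partner of both branches. The group of BMP and GDF ligands used below does not assign its members to a branch. Secreted antagonists, latency proteins and inhibitory Smads set how far and how long the signal runs. In the developing skeleton BMP signalling is required for mesenchymal condensation and for cartilage growth, and GDF5 is known for its part in joint formation.

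Signals are linear intensities, 1 per probe set and array. Signals under a floor of 22.5, the median of all signals on both arrays, were raised to it before log2 ratios of Venus-positive over Venus-negative were taken, and the brightest probe set stood for a gene. A gene counted as measured if either array brought 1 of its probe sets to the floor, which held for 11789 genes. The Venus-positive array was dimmer, and over all measured genes the median log2 ratio was -0.33. The 9 hybridisation control probe sets, which report transcripts added to the hybridisation mix, had a mean log2 ratio of -0.31. "Relative" ratios have the median of all genes subtracted. Among measured probe sets of 1 gene the log2 ratios had a pooled standard deviation of 0.34, which is a disagreement between probes and holds no error between samples.

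The markers matched the label of the sort. All 14 chondrocyte markers were at least 2-fold higher in Venus-positive cells, with log2 ratios from 2.24 to 6.31, and their summed signal was 63219 in Venus-positive cells, against 4357 in Venus-negative cells. Most markers of other cells were lower. Of 13 measured markers of perichondrium and fibroblasts 9 were at least 2-fold lower and none higher, with summed signals of 18728 in Venus-positive cells and 35623 in Venus-negative cells. All 10 measured skeletal muscle markers were 2-fold lower, with sums of 375 in Venus-positive cells, against 4448 in Venus-negative cells, and so were all 9 endothelial markers, with 198 in Venus-positive cells and 986 in Venus-negative cells. Of the leukocyte markers 9 of 10 were 2-fold lower, with sums of 278 in Venus-positive cells, against 2213 in Venus-negative cells. The same held for 5 of 8 smooth muscle and pericyte, 6 of 8 erythroid, 7 of 9 epithelial and 6 of 10 neural markers. The sums of these lists ran from 308 to 12285 in Venus-positive and from 1099 to 17449 in Venus-negative cells. The exception was Sox10, a marker of neural crest and glia on the neural list, with 41.0 in Venus-positive cells, against 16.7, under the floor, in Venus-negative cells, at least 1.82-fold higher. No measured marker had a signal of 0, and some markers of other cells stayed bright in Venus-positive cells. Hbb-y, which made up most of the erythroid sum, had 11912 in Venus-positive cells, against 13190 in Venus-negative cells. Of the perichondrium and fibroblast markers Col3a1, Col1a2 and Lum had 6301, 5845 and 2196 in Venus-positive cells, against 10341, 7892 and 3003 in Venus-negative cells. In Venus-positive cells 6 of the 10 measured muscle, 3 of the 9 endothelial and 5 of the 10 leukocyte markers were under the floor. These marker differences stand beside all differences below, and their part in them was not tested.

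Several BMP and GDF ligands, a BMP receptor and some BMP antagonists were higher in Venus-positive cells, while the TGF-beta ligands and most receptors and signal-carrying Smads lay close to the typical gene or below it. Other antagonists or modulators were lower, namely Fst and, among the further pathway genes below, Sostdc1, Nbl1 and Kcp. Of the 48 measured pathway genes 7 were at least 2-fold higher, namely the ligand genes Gdf10, Bmp5, Bmp6 and Gdf5, the receptor gene Bmpr1b and the antagonist genes Bmper and Nog. This is 14.6% of them, against 2.79% of all measured genes. The genes were listed with earlier results of these data known, so the shares here are descriptions only. Nog was measured only through its Venus-positive signal, so its ratio is a bound set by the floor and adds no support to this count. At least 2-fold lower were 4, namely Tgfbr3, Fst, Inhbb and Bmp1, which is 8.33% against 11.6% of all measured genes. Relative to the median gene 11 were at least 2-fold higher, against 5.06% of all genes, the additional ones being Bmp2, Chrdl1, Bambi and Smad7. On that scale Tgfbr3 was counted as at least 2-fold lower, against 6.45% of all genes. Inhbb, under the floor in Venus-positive cells, has only a bound there and cannot be placed within 2-fold. Its log2 ratio was -1.17 when the arrays were scaled to a level median gene before the floor was set. The median log2 ratio of the 48 genes was -0.19 on the deposited scale, against -0.33 for all genes. It turned to between 0.06 and 0.13 under the 3 other scalings of the arrays, against -0.04 to 0.00 for all genes. A lower signal in a fraction cannot be told apart between fewer cells of an expressing type and less RNA per cell.

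**Figure D1:**
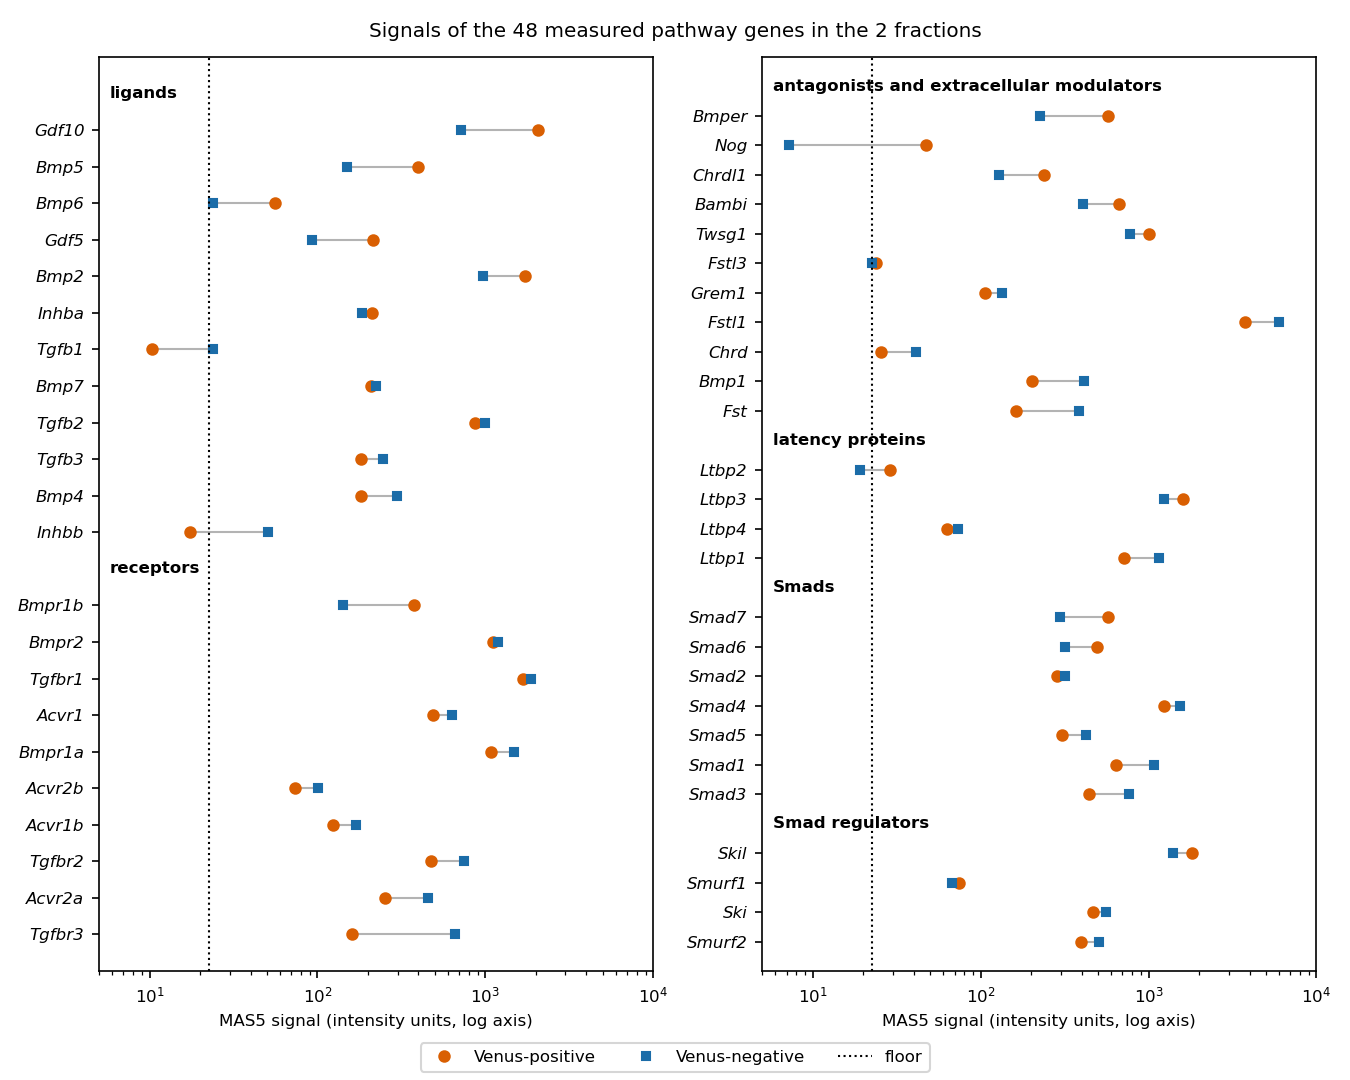
Signals of the 48 measured pathway genes on a log axis, grouped by role, with circles for Venus-positive and squares for Venus-negative cells and the floor of 22.5 as a dotted line. Gdf10, Bmp5, Bmpr1b and Bmper have the circle well to the right of the square, and Tgfbr3 shows the widest gap in the other direction among genes above the floor in both fractions.

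The sequences just before the transcription starts of the higher genes are shown because these genes stood together in the comparison. The RefSeq promoter table for GRCm38.p6 held 36 of the 52 listed genes and 5 of the 7 higher ones, with 7 windows of 250 bases, 3 of them at alternative starts of Bmpr1b. The first of these starts is printed. Capitals mark matches on either strand to CAGAC, the core bound by Smads, and to ACAAAG or ACAATG, cores bound by SOX proteins such as SOX9. GGCGCC, a GC-rich element bound by Smads of the BMP branch, was searched as well.
Gdf10, chr14:33923337-33923586, plus strand: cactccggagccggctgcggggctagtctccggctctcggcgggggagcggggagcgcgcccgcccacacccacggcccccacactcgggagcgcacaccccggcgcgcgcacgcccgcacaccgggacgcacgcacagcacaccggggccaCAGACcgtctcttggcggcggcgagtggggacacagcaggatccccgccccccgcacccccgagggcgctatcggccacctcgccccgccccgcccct
Bmp5, chr9:75775115-75775364, plus strand: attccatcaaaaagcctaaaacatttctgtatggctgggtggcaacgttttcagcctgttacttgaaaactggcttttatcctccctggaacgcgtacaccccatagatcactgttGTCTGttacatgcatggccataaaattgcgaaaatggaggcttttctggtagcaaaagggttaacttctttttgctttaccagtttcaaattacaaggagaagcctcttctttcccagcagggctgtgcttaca
Bmp6, chr13:38345466-38345715, plus strand: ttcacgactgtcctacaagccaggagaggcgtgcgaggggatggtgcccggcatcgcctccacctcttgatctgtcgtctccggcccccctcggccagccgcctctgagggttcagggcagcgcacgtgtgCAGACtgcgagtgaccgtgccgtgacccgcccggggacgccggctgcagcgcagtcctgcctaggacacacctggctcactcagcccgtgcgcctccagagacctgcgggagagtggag
Bmper, chr9:23222826-23223075, plus strand: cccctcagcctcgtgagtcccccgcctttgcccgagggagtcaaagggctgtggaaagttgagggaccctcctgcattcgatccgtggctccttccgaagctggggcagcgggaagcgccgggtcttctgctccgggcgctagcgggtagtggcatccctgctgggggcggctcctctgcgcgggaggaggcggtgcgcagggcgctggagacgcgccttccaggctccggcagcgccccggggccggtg
Bmpr1b, chr3:141982265-141982514, minus strand: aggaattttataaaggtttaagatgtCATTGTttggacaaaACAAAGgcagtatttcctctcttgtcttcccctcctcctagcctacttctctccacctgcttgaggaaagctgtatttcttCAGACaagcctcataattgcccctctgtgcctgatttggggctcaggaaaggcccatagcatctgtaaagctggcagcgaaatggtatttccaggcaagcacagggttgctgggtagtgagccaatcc
CAGAC was present in 5 of the 7 windows, ACAAAG in 3, ACAATG in 1 and GGCGCC in 0. Among all 32851 windows of the table the shares were 42.2% for CAGAC, 16.5% for ACAAAG, 10.7% for ACAATG and 9.59% for GGCGCC. Among the 44 windows of all listed genes in the table CAGAC was present in 20, ACAAAG in 14, ACAATG in 3 and GGCGCC in 11. Both SOX cores lie in windows of Bmpr1b, whose downstream starts have windows that share bases. The windows of Gdf10, Bmper and Bmp6 are rich in G and C (78.8%, 71.6% and 68.8%), and those of Bmp5 and the first Bmpr1b start are not (42.8% and 46.8%). A match describes letters in a window and not a bound site.

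The ligand genes at least 2-fold higher were all of the BMP and GDF kind. At least 2-fold higher were 4 of the 7 measured BMP and GDF ligand genes, or 57.1%, against 2.79% of all genes. None was 2-fold lower, against 11.6% of all genes. The ligand subgroups were formed after the values were seen, so these shares are descriptions only. The median log2 ratio of the BMP and GDF ligand genes was 1.21 on the deposited scale and from 1.48 to 1.56 under the other scalings. The median was under 2-fold, at 0.87, once the floor was raised to the 75th percentile, which left 6 of these genes measured, and at 0.86 without a floor. Gdf10, which encodes a secreted relative of BMP3, reached 2063 in Venus-positive cells and 712 in Venus-negative cells. This 2.90-fold excess was the largest among pathway genes above the floor in both fractions and the 163rd highest ratio of the 11789 measured genes. Bmp5, whose loss in mice shortens the ear cartilage, had 399.8 in Venus-positive cells, against 151 in Venus-negative cells, a 2.64-fold excess. All 3 of its probe sets lay on the same side, with log2 ratios from 1.09 to 1.46. Gdf5, the joint ligand, had 214 in Venus-positive cells and 92.3 in Venus-negative cells, 2.32-fold higher. Bmp6, a ligand known from hypertrophic cartilage, had 56.2 in Venus-positive cells, against 23.9 in Venus-negative cells, a 2.35-fold excess at signals close to the floor. Gdf10, Gdf5 and Bmp6 each rest on 1 probe set.

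Close relatives among the ligands differed in direction. Bmp2 and Bmp4 encode near relatives that use the same receptors. Bmp2 had 1717 in Venus-positive cells and 966 in Venus-negative cells, 1.78-fold higher, or 2.24-fold relative to the median gene. Bmp4 had 181 in Venus-positive cells, against 296 in Venus-negative cells, 1.64-fold lower, with a relative log2 ratio of -0.38. Bmp7 belongs to the subgroup of Bmp5 and Bmp6 but was nearly level, with 209 in Venus-positive cells and 222 in Venus-negative cells. Its 3 probe sets lay on both sides of 0, from -0.09 to 0.33. The single probe set of Gdf11, a ligand of the activin branch, read 16.8 in Venus-positive cells, against 6.02 in Venus-negative cells, under the floor in both, so no ratio was taken.

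None of the 5 TGF-beta and activin ligand genes was 2-fold higher, but only 2.79% of all genes were, so this does not mark them out. Their median log2 ratio was -0.21, or -0.09 to -0.01 under the other scalings. Tgfb2, which with Tgfb3 takes part in skeletal development, had 864 in Venus-positive cells and 1002 in Venus-negative cells, and its 4 probe sets gave log2 ratios from -0.39 to -0.16. Tgfb3 had 182 in Venus-positive cells, against 247 in Venus-negative cells, with a relative log2 ratio of -0.11. Both genes were thus near the median gene. Tgfb1 was under the floor at 10.4 in Venus-positive cells and just above it at 23.9 in Venus-negative cells, too dim for a ratio of use. Inhba, which encodes the subunit of activin A, had 212 in Venus-positive cells and 184 in Venus-negative cells, a log2 ratio of 0.21. Inhbb, the subunit of activin B, had 17.4, under the floor, in Venus-positive cells, against 50.8 in Venus-negative cells. It was at least 2.26-fold lower, and at least 1.79-fold lower relative to the median gene.

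Among the 10 receptors Bmpr1b was the only one with a higher signal in Venus-positive cells on the deposited scale. On that scale 9110 of the 11789 measured genes had a negative ratio, so this does not mark out the other receptors. Above the median gene were 3 of the 10 receptors. BMP receptor type IB is a type I receptor that takes part in early cartilage formation and is the main partner of GDF5. Its gene had 374 in Venus-positive cells and 143 in Venus-negative cells, a 2.61-fold excess. Another probe set read 38.7 in Venus-positive cells, against 16.9 in Venus-negative cells, a log2 ratio of 0.78 with the dimmer side at the floor. The remaining one was under the floor on both arrays. The windows printed above include its first start. The other BMP type I receptor genes were not higher. Bmpr1a had 1085 in Venus-positive cells and 1486 in Venus-negative cells, with log2 ratios from -0.45 to -0.08 over 5 measured probe sets. Acvr1, which encodes ALK2, a receptor for BMPs, had 490.4 in Venus-positive cells, against 629.7 in Venus-negative cells, while a probe set at the floor gave 0.07. The relative log2 ratios of these genes were -0.12 and -0.03, so both were level with the median gene.

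The type I receptor genes of the TGF-beta and activin branch were near the median gene as well. Tgfbr1 had 1674 in Venus-positive cells and 1881 in Venus-negative cells, a relative log2 ratio of 0.16. Acvr1b, an activin receptor, had 123 in Venus-positive cells, against 169.9 in Venus-negative cells, a relative log2 ratio of -0.13. The 4 type II receptors, which phosphorylate the type I receptors, had a median log2 ratio of -0.56, and from -0.24 to -0.21 under the other scalings. Bmpr2, the BMP type II receptor, had 1111 in Venus-positive cells and 1195 in Venus-negative cells and 3 probe sets between -0.11 and -0.02, and a relative log2 ratio of 0.23. Tgfbr2 had 475 in Venus-positive cells, against 749 in Venus-negative cells, 1.58-fold lower. Acvr2a, shared by activins and BMPs, had 252 in Venus-positive cells and 456 in Venus-negative cells, 1.81-fold lower, and its second probe set gave -0.92. Acvr2b had 73.2 in Venus-positive cells, against 100.2 in Venus-negative cells, but its second measured probe set gave a log2 ratio of -1.42. None of the 4 reached 2-fold in its brightest probe set, which was also so for 10092 of the 11789 measured genes.

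Tgfbr3 had the lowest ratio of the 48 genes. It encodes betaglycan, a coreceptor that presents TGF-beta to its receptors and also binds inhibin. Its signal was 160.1 in Venus-positive cells and 661 in Venus-negative cells, 4.13-fold lower, or 3.28-fold lower relative to the median gene. This was the 246th lowest of the 11789 ratios, and it rests on 1 probe set, since the second was under the floor in both fractions. It was at least 2-fold lower under all 9 settings tried, with log2 ratios from -2.05 to -1.70.

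**Figure D2:**
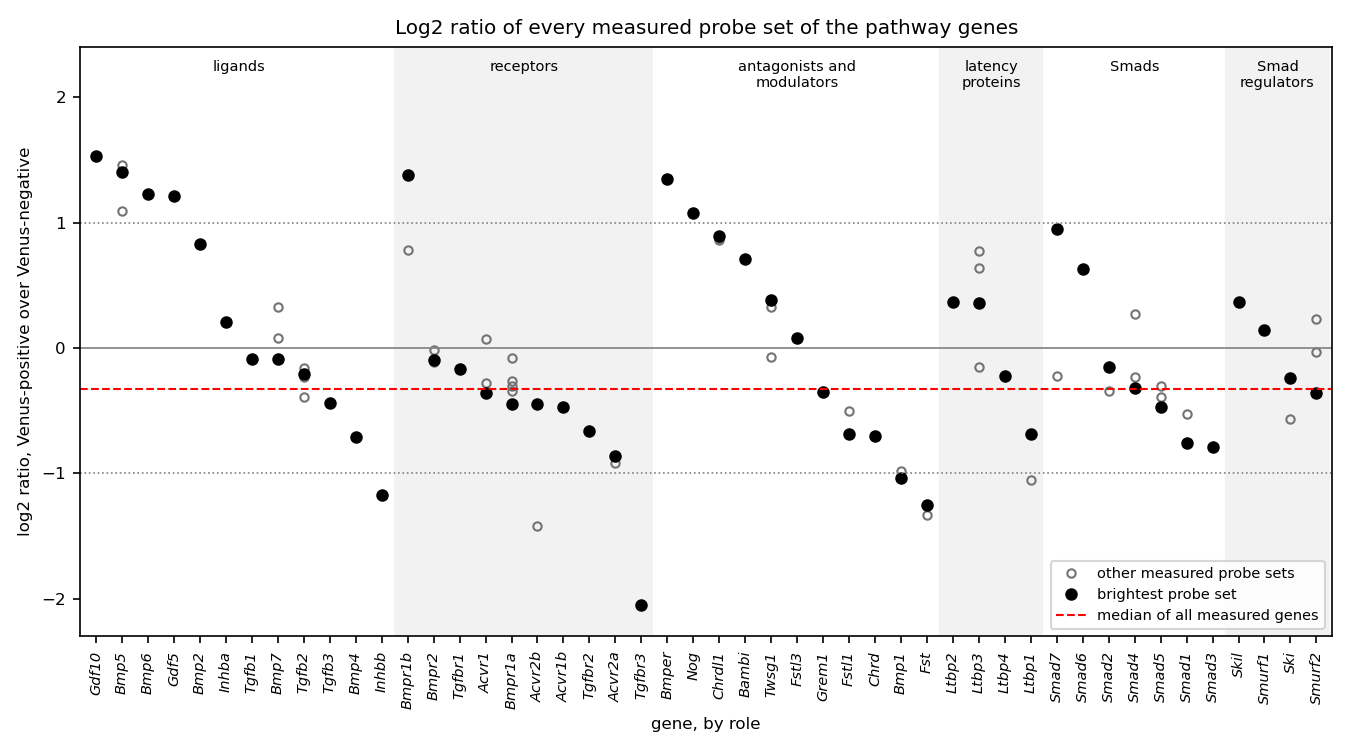
Log2 ratios, Venus-positive to Venus-negative, for each of the 90 measured probe sets of the pathway genes, by role, with filled points for the brightest probe set of a gene and open points for the others. The dashed line is the median of all genes at -0.33 and dotted lines mark 2-fold. The filled points of Gdf10, Bmp5, Bmpr1b and Bmper lie above the upper dotted line, an open point of Bmpr1b lies below it at 0.78, Tgfbr3 is the lowest point at -2.05, and Smad7 has the widest gap between its probe sets.

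Among 11 antagonists and other extracellular modulators 2 had a deposited ratio at least 2-fold up and 2 at least 2-fold down, while 4 were higher and none lower relative to the median gene. The deposited shares were 18.2% each, against 2.79% of all genes up and 11.6% down. The relative share of higher genes was 36.4% against 5.06%. Both counts of higher genes include Nog, whose ratio is a bound set by the floor and adds no support to them. Bmper encodes a chordin-like protein that binds BMPs and can inhibit or promote their action. Its signal was 577 in Venus-positive cells, against 226 in Venus-negative cells, 2.55-fold higher, from 1 probe set. Nog encodes noggin, which sequesters BMPs and is needed for joints to form. It had 47.5 in Venus-positive and 7.23, under the floor, in Venus-negative cells, at least 2.11-fold higher and dim in both.

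Chrdl1 and Chrd, 2 genes of the chordin family of BMP-binding proteins, lay on opposite sides. Chrdl1 had 239 in Venus-positive cells and 129 in Venus-negative cells, 1.85-fold higher, or 2.33-fold relative to the median gene. Its 4 probe sets spanned only 0.86 to 0.89. Chrd had 25.4 in Venus-positive cells, against 41.3 in Venus-negative cells, 1.63-fold lower and dim. Bambi, a pseudoreceptor without a kinase domain that dampens TGF-beta and BMP signals, had 668 in Venus-positive cells and 408 in Venus-negative cells. Its 1.64-fold excess was 2.06-fold relative to the median gene. Twsg1, a BMP-binding partner of chordin, had 1010 in Venus-positive cells, against 778 in Venus-negative cells on a probe set that can match several transcripts, and a dim one gave -0.07. Grem1, a BMP antagonist of limb mesenchyme, had 106 in Venus-positive cells and 135 in Venus-negative cells, a relative log2 ratio of -0.01. Signals of Grem1 were thus as far apart as those of the median gene.

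Follistatin family genes did not share the excess of Bmper. Fst encodes follistatin, which neutralises activins. It had 163 in Venus-positive cells, against 388 in Venus-negative cells, 2.39-fold lower, and the other probe set gave -1.33. Relative to the median gene the deficit was 1.90-fold. Fstl1, a secreted glycoprotein abundant in mesenchyme, had 3744 in Venus-positive cells and 6027 in Venus-negative cells, and its 2 probe sets gave -0.69 and -0.50. Fstl3 had 23.9 in Venus-positive cells, against 22.5 in Venus-negative cells, both at the floor. Bmp1 is no ligand in spite of its name, since it encodes a protease that cleaves procollagens and chordin. It had 201 in Venus-positive cells and 412 in Venus-negative cells, 2.05-fold lower, with a second probe set at -0.98, and 1.63-fold lower relative to the median gene.

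The 4 latency proteins belong to a family with members that hold TGF-beta in the matrix until it is released. Their brightest probe sets had log2 ratios between -0.69 and 0.37, and none of these reached 2-fold on either scale. The same was so for 10092 of the 11789 measured genes on the deposited scale and for 10432 relative to the median gene. Ltbp1 had 717 in Venus-positive cells, against 1158 in Venus-negative cells, 1.61-fold lower, and a dimmer probe set gave -1.05. Ltbp3, whose loss in mice affects the skeleton, had 1597 in Venus-positive cells and 1245 in Venus-negative cells on a probe set that can match several transcripts. Its 4 probe sets ran from -0.15 to 0.77. Ltbp1 and Ltbp3 thus lay on opposite sides of the median gene, at relative log2 ratios of -0.36 and 0.69. Ltbp2 had 29.0 in Venus-positive cells, against 19.2 in Venus-negative cells, and Ltbp4, likewise dim, had 62.7 in Venus-positive cells and 73.1 in Venus-negative cells.

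Smads that carry the signal and Smads that limit it lay on different sides of 0 on the deposited scale. The 4 measured receptor-regulated Smads had a median log2 ratio of -0.62, or -0.35 to -0.27 under the other scalings. Smad1 had 638 in Venus-positive cells, against 1082 in Venus-negative cells, 1.70-fold lower, with all 3 probe sets between -0.76 and -0.53. Smad5 had 305 in Venus-positive cells and 423 in Venus-negative cells, with 3 probe sets between -0.47 and -0.30. These are the BMP-branch Smads, together with Smad9, which read 17.0 in Venus-positive cells, against 8.18 in Venus-negative cells, under the floor in both. In the TGF-beta branch Smad2 had 287 in Venus-positive cells and 318 in Venus-negative cells, a relative log2 ratio of 0.19. Smad3 had 441 in Venus-positive cells, against 763 in Venus-negative cells, 1.73-fold lower. The shared partner Smad4 had 1236 in Venus-positive cells and 1546 in Venus-negative cells, a relative log2 ratio of 0.01, and its 3 probe sets ran from -0.32 to 0.27. None of the measured ones differed by 2-fold, which was also so for 10092 of all 11789 measured genes.

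The inhibitory Smads, which are themselves induced by the pathway and block it in a feedback loop, were both higher. Smad6, which acts mainly on the BMP branch, had 493 in Venus-positive cells, against 319 in Venus-negative cells, 1.55-fold higher, or 1.95-fold relative to the median gene. Smad7, which acts on both branches, had 573 in Venus-positive cells and 296 in Venus-negative cells, 1.93-fold higher, or 2.43-fold relative to the median gene. The second probe set of Smad7, of a kind that can match other transcripts, read 219 in Venus-positive cells, against 256 in Venus-negative cells, a log2 ratio of -0.22. This gap of 1.17 between its probe sets was the largest in the pathway, and the mean over both was 0.36. The 4 Smad regulators stayed within 2-fold on both scales, as most measured genes did. Skil, a repressor of Smad-driven transcription, had 1814 in Venus-positive cells and 1401 in Venus-negative cells, and both of its probe sets gave 0.37. Its relative Ski had 469.7 in Venus-positive cells, against 555 in Venus-negative cells, a log2 ratio of -0.24. Among the ubiquitin ligases that target Smads and receptors, Smurf1 had 74.0 in Venus-positive cells and 67.3 in Venus-negative cells. Smurf2 had 394 in Venus-positive cells, against 506 in Venus-negative cells, and its 3 probe sets ran from -0.36 to 0.23.

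**Figure D3:**
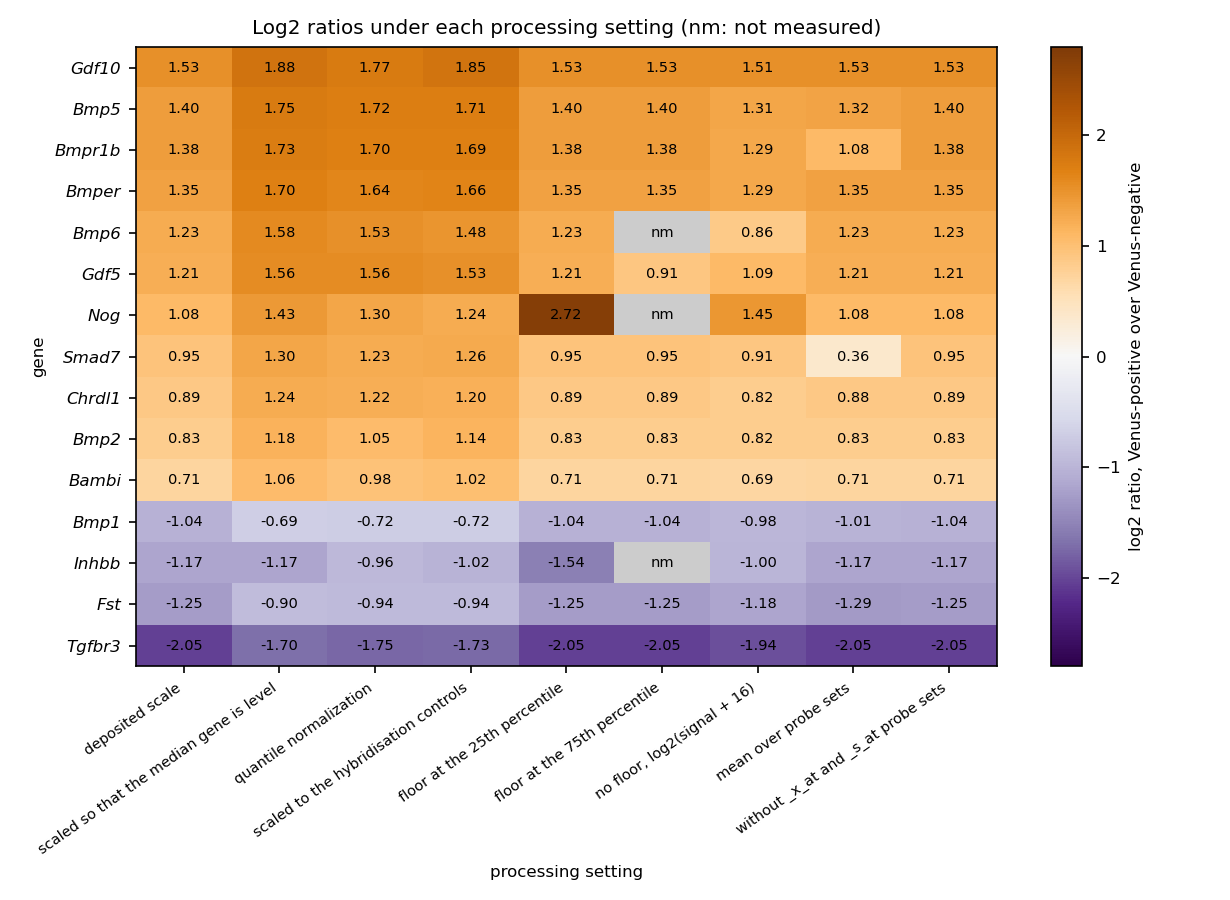
Log2 ratios, Venus-positive to Venus-negative, of the 15 pathway genes at least 2-fold different on either scale, under the deposited scale and 8 other settings, where nm means that no probe set reached the floor. Gdf10, Bmp5, Bmpr1b and Bmper stay above 1 and Tgfbr3 below -1 in every column, while Bmp1 and Fst are within 2-fold where the arrays are rescaled.

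A list of 74 further genes of the pathway, without the genes above, had 48 measured members, of which 6 were at least 2-fold higher and 6 lower, and 9 and 5 relative to the median gene. The share of lower genes, 12.5%, was near the 11.6% of all genes, while 12.5% were higher against 2.79%. Relative to the median gene 18.8% were higher, against 5.06% of all genes, and 10.4% lower, against 6.45%. These further genes too were listed with earlier results of these data known, so their shares are descriptions only. Known target genes held most of the higher ones. Of 15 measured targets 5 were at least 2-fold higher and 1 lower, and 8 and 1 relative to the median gene, which is 33.3% higher and 6.67% lower on the deposited scale. Ccn2, a matrix-associated growth regulator induced by TGF-beta, had 3558 in Venus-positive cells and 948 in Venus-negative cells, 3.75-fold higher. Klf10, an early response gene of TGF-beta, had 1232 in Venus-positive cells, against 376 in Venus-negative cells, 3.28-fold higher. Both rest on 1 probe set. Tnc, encoding the matrix protein tenascin C, had 1639 in Venus-positive cells and 569 in Venus-negative cells, a 2.88-fold excess, and the other probe set gave 0.93. Junb had 424 in Venus-positive cells, against 195 in Venus-negative cells, 2.17-fold higher. Tgfbi, a matrix protein named for its induction by TGF-beta, had 3560 in Venus-positive cells and 2168 in Venus-negative cells, with 4 probe sets between 0.61 and 1.11. All of these genes also answer to other signals, and the target list shares Col1a1 with the perichondrium markers.

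The Id genes encode inhibitors of basic helix-loop-helix factors and are the usual readout of BMP signalling. Id4 had 1829 in Venus-positive cells, against 718 in Venus-negative cells, a 2.55-fold excess, with 3 probe sets between 1.22 and 1.35. Id1 had 2750 in Venus-positive cells and 1685 in Venus-negative cells, 1.63-fold higher, or 2.05-fold relative to the median gene. All 4 Id genes had a positive ratio, against 2678 of the 11789 measured genes. Id2 had 3848 in Venus-positive cells, against 3203 in Venus-negative cells, a log2 ratio of 0.26, and its 3 probe sets reached up to 0.77. Id3 had 2754 in Venus-positive cells and 2261 in Venus-negative cells, a log2 ratio of 0.28. The ratios 0.26 and 0.28 are under the pooled spread of 0.34 between probe sets. Atoh8, another BMP target, was dim at 65.9 in Venus-positive cells, against 39.2 in Venus-negative cells, 2.11-fold higher relative to the median gene. Msx1, a homeobox gene induced by BMP in limb and facial mesenchyme, was the target at least 2-fold lower, with 146 in Venus-positive cells and 720.4 in Venus-negative cells. It was 4.93-fold lower, and its second probe set gave -1.45. Another 4 targets had negative ratios within 2-fold. Msx2, a relative of Msx1, had 72.9 in Venus-positive cells, against 118 in Venus-negative cells, a log2 ratio of -0.70, and Hey1, a repressor of the hairy kind, had 95.5 in Venus-positive cells and 134 in Venus-negative cells, a ratio of -0.49. Col1a1, a collagen gene, gave -0.68 and Pmepa1, an inhibitor of TGF-beta signalling, -0.34.

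**Figure D4:**
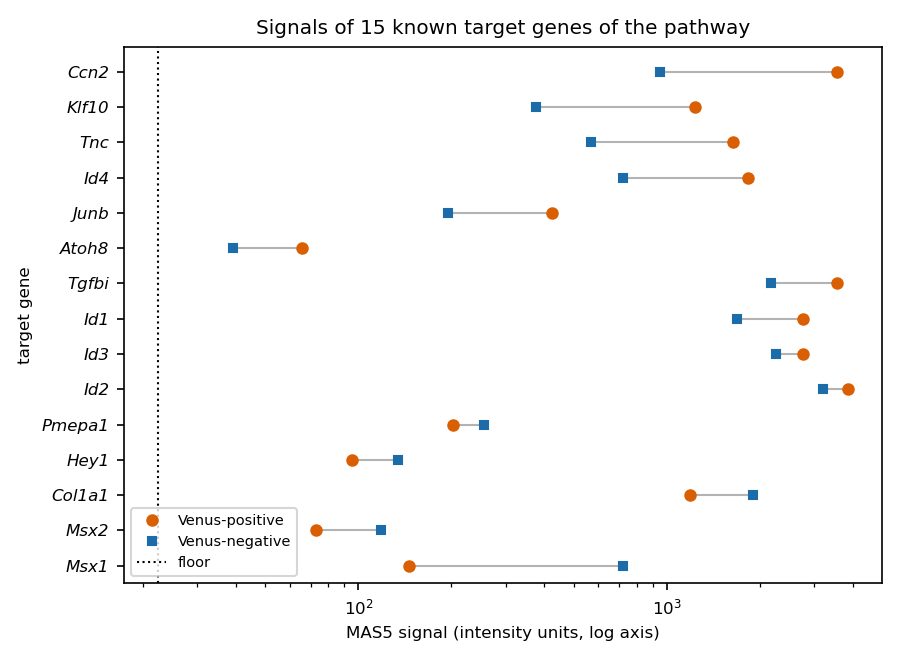
Signals of 15 known target genes on a log axis, with circles for Venus-positive and squares for Venus-negative cells. Ccn2, Klf10, Tnc, Id4 and Junb have the circle to the right by at least 2-fold, and Msx1 has it to the left.

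Outside the targets 5 further genes were at least 2-fold lower. Of the 11 measured further extracellular modulators 4 were lower, or 36.4%, against 11.6% of all genes, and 1 was higher, or 9.09%, against 2.79%. Sostdc1, a BMP and Wnt antagonist, had 92.3 in Venus-positive cells, against 544 in Venus-negative cells, 5.90-fold lower, and its second probe set gave -2.86. Nbl1, a BMP antagonist of the gremlin kind, had 55.7 in Venus-positive cells and 218 in Venus-negative cells, 3.92-fold lower. Kcp, a chordin-like modulator, had 91.5 in Venus-positive cells, against 248 in Venus-negative cells, 2.71-fold lower. These modulators thus lay opposite to Bmper. Itgb8, an integrin chain that releases latent TGF-beta, had 80.8 in Venus-positive cells and 195 in Venus-negative cells, 2.41-fold lower, or 1.92-fold relative to the median gene. Thbs1, encoding thrombospondin 1, which can also release latent TGF-beta, had 1416 in Venus-positive cells, against 554 in Venus-negative cells, a 2.56-fold excess, with log2 ratios of 1.35 and 1.43 on its 2 probe sets. Zeb2, a repressor that binds Smads, had 54.2 in Venus-positive cells and 327 in Venus-negative cells, 6.04-fold lower, with 5 probe sets from -3.03 to -0.66. Each of the 5 further ligand genes that were measured had a signal of at most 50.3 on either array.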

How the data were processed

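Each of the 2 arrays has 1 deposited value per probe set, a linear intensity that the authors made with MAS5, as the submitters' processing notes say. The sources used here name no version, scaling target or detection calls. Per the labels' protocols, biotinylated cRNA was made from 100 ng of total RNA. The number of arrays limits the precision.

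The 64 control probe sets were set aside. Of the other 45037, 34945 were paired with 1 gene symbol by the platform annotation, 932 with several and 9160 with none, and only the first kind was used. Counts past a fixed size of 2-fold are descriptions and no tests. Groups were taken from the cell type in the labels. All 52 pathway genes are accounted for. Signals of both fractions are given for genes past 2-fold on either scale, genes with probe sets on opposite sides of 0, all receptors and all Smads, and for further genes of each role. The members, lists and subgroups were chosen with earlier results of these data known, and the subgroups of ligands, receptors, antagonists and Smads after the values were seen. Alternatives were 3 other scalings of the arrays, floors at the 25th and 75th percentiles, log2(signal + 16) without a floor, the average of all probe sets of a gene, and only those whose names end in neither _x_at nor _s_at. Sequences came from RefSeq (GRCm38.p6). Since no build is named for the array values, no coordinates are given for probe sets. Work was done in Python 3.11.15 with numpy 2.4.6 and pandas 2.3.3 and tested on simulated data.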

Additional observations from a re-analysis of the deposited data

How the results depend on the processing

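The number of pathway genes at least 2-fold higher in Venus-positive cells was 7 on the deposited scale, 11 when the median gene was set level, 11 when the arrays were scaled to the hybridisation controls and 4 with the floor at the 75th percentile, where 38 of the genes were measured. The number at least 2-fold lower was 4 on the deposited scale, 2 with the median gene level, 2 with the hybridisation controls, 1 with quantile normalization and 2 without a floor. Rescaling brightens the Venus-positive array by construction, which adds higher genes and removes lower ones. Of 372 single-gene values under the alternatives, 61 moved by more than the spread between probe sets. Of these, 46 moved when the median gene was set level, which adds nearly the same amount to most genes. A slightly smaller shift, the scaling to the hybridisation controls, moved 0 of 47. No gene past 2-fold changed sign, but a rescaling of this size could not turn such a ratio, so this is no support. Gdf10, Bmp5, Bmpr1b, Bmper and Tgfbr3 were past 2-fold in all 9 settings, Gdf5 in 8 of 9 and Bmp6 in 7 of 8. Nog was past it in all 8 in which it was measured, and was not measured with the floor at the 75th percentile. Its log2 ratio ran from 1.08 to 2.72 with the treatment of the floor, so its count of settings is no support. Inhbb was past it in 6 of 8, Fst in 6 of 9 and Bmp1 in 5 of 9. Signals near the floor limit the ratios of Nog, Bmp6, Inhbb, Tgfb1, Chrd, Fstl3 and Ltbp2, among others. No paired analysis was possible because each fraction has 1 sample.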
